A study of Danio rerio with 3 samples.

Results

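The genes described here encode the voltage-gated sodium and calcium channels of the zebrafish (Danio rerio) brain, their pore-forming subunits together with their accessory subunits. They were taken from the gene table by symbol, as every row whose symbol began with cacna, cacnb or cacng, or with scn followed by a digit. The rule gave 66 of the 32057 genes in the table. These 66 rows carried 62 distinct symbols, since cacna1db had 4 rows and cacna2d4a had 2, and 2 rows, CACNA2D1 and CACNA2D3, were written in capitals. The study asked how zinc affects the zebrafish brain and made 1 single-cell library from brain for each of 3 treatments, labelled Ctrl, Zn10 and Zn15. The labels give Zn10 and Zn15 as treatments with no unit for the number, and the sources used here do not give how or for how long fish were exposed, their age, sex or strain, or whether brains were pooled. All 3 libraries came from single-cell preparations on a droplet platform that tags each RNA molecule with a unique molecular identifier (UMI), so that a count is a count of captured molecules.

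Voltage-gated sodium channels open when a membrane is depolarised and carry the upstroke of the action potential, while voltage-gated calcium channels let in the calcium that triggers transmitter release, pacemaking and gene regulation. A pore-forming alpha subunit sets the channel's type, and beta and alpha2delta subunits govern its trafficking and gating. Most genes named cacng belong to another branch of the same family, the transmembrane AMPA receptor regulatory proteins (TARPs), which escort AMPA-type glutamate receptors to synapses and shape their currents. The symbols therefore join channel subunits with proteins whose best known partner is a glutamate receptor, and both are known mainly from excitable cells.

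The libraries held 5679, 2850 and 5154 cell barcodes in Ctrl, Zn10 and Zn15, with 1698707, 974866 and 1634806 UMIs. They were shallow, with median UMIs per barcode between 240 and 271, and malat1, a nuclear noncoding RNA, took between 27.0% and 32.3% of all UMIs. Between 4 and 8 barcodes were shared by any 2 libraries. No doublet caller was run, and doublets were not removed here. Barcodes were assigned to a class from marker genes that include no channel gene: a barcode was positive for a class when it held at least 2 UMIs of that class's markers and more than of any other class's. Of the 13683 barcodes, 5635 were neuron-positive, 3207 were glia-positive, and 4622 were positive for no class.

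The 66 genes together gave 2085 UMIs, split as 803, 627 and 655 between Ctrl, Zn10 and Zn15. Of these genes, 15 had no UMI in any library, 18 had between 1 and 5, 11 had between 6 and 19, 16 had between 20 and 99, and 6 had at least 100. In counts per 1000000 UMIs (CPM), a gene with 0 UMIs in Ctrl, Zn10 or Zn15 had an upper counting limit of 2.17, 3.78 or 2.26. A floor of 3 UMIs corresponds to 1.77, 3.08 and 1.84 CPM in these libraries. UMI totals are given here as counts and not as levels between genes, because capture depends on each transcript. All intervals are 95% intervals and cover counting error only.

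The genes of the TARP branch took 51.0% of the UMIs of the set, 1064 UMIs over 11 genes of which 10 were detected. The Cav2 alpha subunits, which form the presynaptic P/Q-, N- and R-type calcium channels, followed with 262 UMIs. The sodium channel beta subunits had 220 UMIs, the calcium channel beta subunits 193 and the sodium channel alpha subunits 188. Fewer UMIs came from the T-type Cav3 subunits with 59, the alpha2delta subunits with 58 and the L-type Cav1 subunits with 37. The gamma 1 and gamma 6 subunits, of which gamma 1 is known from skeletal muscle, had 4.

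In several pairs of zebrafish paralogs, a single copy held nearly all of the UMIs. The P/Q-type gene cacna1ab had 209 UMIs and its copy cacna1aa had 14. The Nav1.6 gene scn8aa, whose channel is known from the axon initial segment and nodes of Ranvier, had 112 UMIs against 11 for scn8ab. Among the TARP genes cacng4a had 43 UMIs and cacng4b 4, cacng5a had 37 and cacng5b 3, and cacng3b had 29 while cacng3a had none. The T-type gene cacna1ia had 25 UMIs and cacna1ib none, and the calcium channel beta gene cacnb2a had 41 UMIs against 1 for cacnb2b. More even pairs were cacng8a and cacng8b with 386 and 249 UMIs, cacng7a and cacng7b with 45 and 75, and the sodium channel beta genes scn1ba and scn1bb with 42 and 23. Reads that fit both copies of a pair may have been left out or split in counting, which was not tested.

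**Figure D1:**
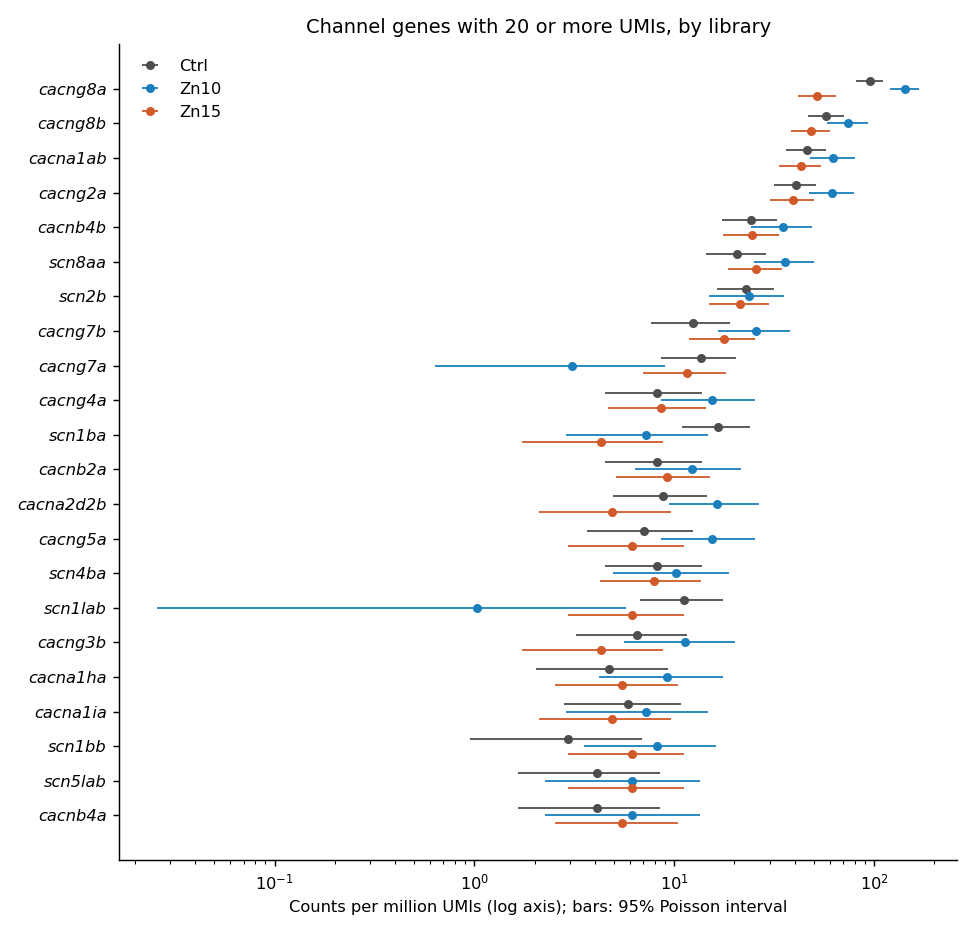
Level of each of the most abundant channel genes in the 3 libraries, as CPM with 95% counting intervals, 1 point per library. The gene cacng8a stood at 95.4, 143 and 52.0 CPM in Ctrl, Zn10 and Zn15, the widest spread in CPM among the genes shown, while scn2b stayed between 21.4 and 23.6 CPM.

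Neuron-positive barcodes carried the set at 820 CPM (interval 779 to 863, 1491 UMIs), and glia-positive barcodes at 206 CPM (181 to 232, 256 UMIs). For Ctrl, Zn10 and Zn15 the level in neurons was 781, 1011 and 716 CPM, and in glia it was 189, 277 and 187 CPM. Neurons were higher than glia in each library, with pooled ratio 3.99 (3.49 to 4.57). Within neurons, GABAergic barcodes stood at 1026 CPM and glutamatergic barcodes at 934 CPM, and the interval of the GABAergic to glutamatergic ratio, 0.945 to 1.28, included 1. Neuron-positive barcodes with UMIs of neither or of both transmitter lists stood lower, at 718 CPM (668 to 769). Among glia the level was 378 CPM (234 to 577, 21 UMIs) in oligodendrocyte precursor cells (OPCs), 292 CPM (251 to 338) in radial glia and 111 CPM (83.2 to 144) in oligodendrocytes. Microglia, immune cells that do not fire action potentials, gave 3 UMIs in 192 barcodes, or 32.4 CPM (6.68 to 94.6). This count is at the floor of 3 UMIs, and the interval overlapped that of oligodendrocytes. Per barcode microglia were deeper than neurons, with library medians of 436 to 506 UMIs. The class as a whole held only 92634 UMIs, against 1817663 in neurons. Barcodes with no class stood at 280 CPM, between neurons and oligodendrocytes.

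**Figure D2:**
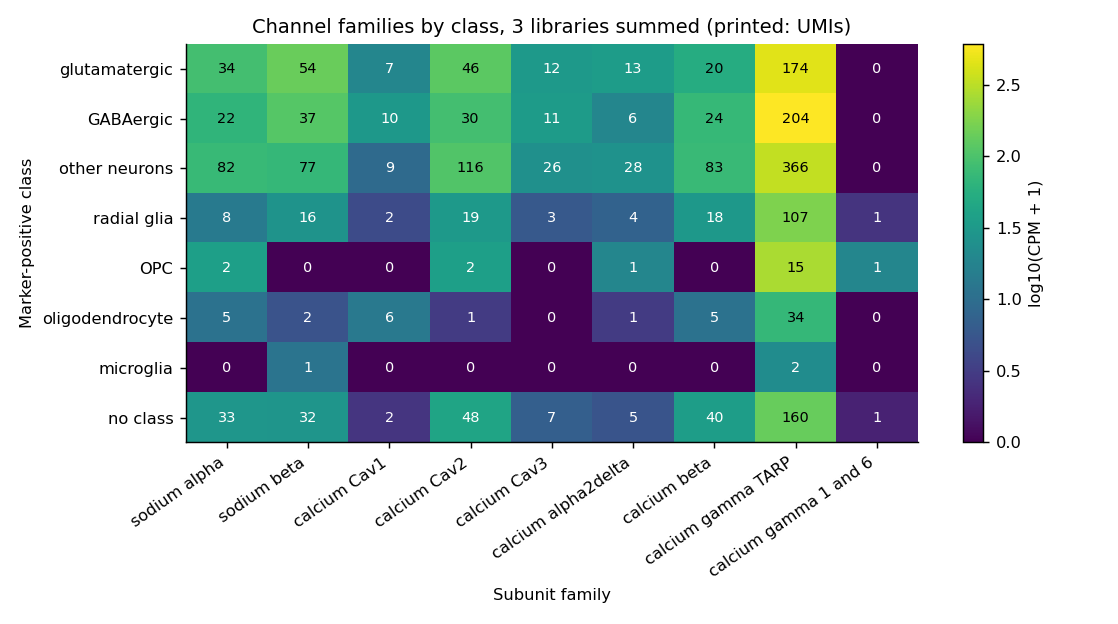
Level of each subunit group (columns) in each class (rows) over the 3 libraries together, coloured by log10(CPM + 1), with the number of UMIs printed in each cell. Of the 9 columns, the TARP column held the most UMIs in each of the 8 rows shown, with 174 in glutamatergic neurons, 107 in radial glia and 15 of the 21 in OPCs.

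Differences between neurons and glia were tested gene by gene on UMI sums of each class in each library, using edgeR's quasi-likelihood test with the library as a block and the class markers left out. Enough UMIs for a test, at least 30 over the 6 sums, were held by 14 of the 66 genes. Of these, 13 were higher in neurons and 1 was lower at an adjusted p under 0.05. Across all 7023 genes tested the shares were 22.9% higher and 23.5% lower, and the median log2 fold change was 0.05, against 2.22 for the 14 channel genes. A gene passes the minimum more easily through the larger neuron sums, so the 14 do not stand for all 66. DESeq2 on the same sums called 7 higher, with a background of 12.7%, and 1 lower, with a background of 15% of the same genes. The genes it did not call were cacng8b, cacnb4b, cacnb2a, scn1ba, scn4ba and cacna2d2b. Without the Ctrl library 7 of 8 genes with enough UMIs were called higher, a fit whose background is not given here.

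Among the alpha subunits, both genes with enough UMIs were higher in neurons, beside 22.9% of all genes tested. An alpha subunit gene low in neurons had less chance to reach the minimum. The P/Q-type gene cacna1ab, whose channel drives transmitter release, stood at 73.2, 106 and 83.4 CPM in neurons of Ctrl, Zn10 and Zn15, and at 16.5, 12.2 and 13.6 CPM in glia. The 2 ranges did not overlap, and the log2 fold change was 2.30 ± 0.33 (SE; edgeR, adjusted p = 4.59e-07). Radial glia held 16 of its 18 UMIs in glia. Against radial glia alone its log2 fold change was 1.31 (edgeR, adjusted p = 0.00318), and against oligodendrocytes alone it was 4.97 (edgeR, adjusted p = 1.34e-09). The Nav1.6 gene scn8aa had 28, 31 and 32 UMIs in neurons and 0, 2 and 3 in glia, a log2 fold change of 3.33 ± 0.51 (edgeR, adjusted p = 1.60e-06). Oligodendrocytes had no UMI of scn8aa. The neuron level was 8.14-fold a floor of 3 UMIs over that class, a fold that leaves out the counting error and is not a lower limit.

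The 6 accessory subunits of both channels with enough UMIs were also called higher in neurons by edgeR, beside 22.9% of all genes tested. Of the 6, only scn2b was called as well by DESeq2 and against radial glia alone. These genes reached the minimum mostly through neuron UMIs, so the 6 do not stand for the other accessory genes. The sodium channel beta 2 gene scn2b, whose product is disulphide-linked to the alpha subunit, stood at 42.0, 39.5 and 45.0 CPM in neurons and at 6.17, 0 and 9.74 CPM in glia (log2 fold change 2.50 ± 0.48; edgeR, adjusted p = 5.21e-05). The beta 1 gene scn1ba, with 21, 7 and 6 UMIs in neurons and 3, 0 and 0 in glia, had a log2 fold change of 2.62 ± 0.74. The beta 4 gene scn4ba, with 11, 10 and 10 UMIs in neurons and 0, 0 and 2 in glia, had a log2 fold change of 3.03 ± 0.82. Each of these sodium beta genes had more UMIs in neurons than in glia in every library. The calcium channel beta 4 gene cacnb4b, whose mouse counterpart is mutated in the lethargic strain, had 26, 26 and 23 UMIs in neurons and 4, 5 and 4 in glia (log2 fold change 1.68 ± 0.41; edgeR, adjusted p = 9.47e-04). The beta 2 gene cacnb2a (1.70 ± 0.65, adjusted p = 0.0311) and the alpha2delta gene cacna2d2b (2.14 ± 0.70, adjusted p = 0.0123) were the calls with the highest adjusted p in the edgeR fit.

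The TARP genes did not behave alike. The gene cacng8a stood at 167, 252 and 95.1 CPM in neurons of Ctrl, Zn10 and Zn15, and at 41.1, 28.5 and 27.3 CPM in glia, a log2 fold change of 2.01 ± 0.25 (edgeR, adjusted p = 5.04e-08). Stargazin, encoded by cacng2a and named for the stargazer mouse with absence seizures and ataxia, stood at 65.1, 104 and 58.4 CPM in neurons and at 16.5, 16.3 and 17.5 CPM in glia (1.83 ± 0.33, adjusted p = 1.90e-05). In neither gene did the neuron and glia levels overlap between libraries. The type II TARP genes cacng7a and cacng7b were further apart between the classes, with log2 fold changes of 3.45 ± 0.77 and 3.34 ± 0.65. Radial glia had no UMI of either gene. Set against a floor of 3 UMIs over radial glia, the neuron level was 4.36-fold for cacng7a and 6.48-fold for cacng7b. These folds leave out the counting error and are not lower limits.

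The copy cacng8b was nearer in level between the classes than cacng8a. It stood at 90.9, 104 and 78.4 CPM in neurons and at 26.7, 65.1 and 37.0 CPM in glia, and its log2 fold change of 0.95 ± 0.27 (edgeR, adjusted p = 0.00365) lost its call when the Ctrl library was left out (0.56, adjusted p = 0.168). Radial glia held 39 of its 48 UMIs in glia. Against radial glia alone its log2 fold change was 0.09 (edgeR, adjusted p = 0.865), and against oligodendrocytes alone it was 2.63 (edgeR, adjusted p = 2.27e-06). In CPM, radial glia stood at 49.9, 99.3 and 59.0 in Ctrl, Zn10 and Zn15, below neurons in each library. The edgeR fold uses its own scaling of the sums (TMM), which differs from CPM, so 0.09 does not mean equal CPM. The share of cacng8a in the UMIs of the pair was 74.8% (Clopper-Pearson interval 66.8 to 81.8) in GABAergic neurons, 63.2% (53.8 to 72.0) in glutamatergic neurons and 39.1% (27.1 to 52.1) in radial glia. In GABAergic neurons it was 70.2%, 84.9% and 65.5% in Ctrl, Zn10 and Zn15, and in radial glia it was 47.4%, 29.4% and 39.3%. The lowest GABAergic library thus lay above the highest radial glia library. Glutamatergic neurons stood at 68.3%, 69.4% and 44.4%, so that their Zn15 share lay below that of radial glia in Ctrl. The remaining neurons stood at 59.8%, 60.9% and 54.2%. These differences in the share were not tested across libraries.

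**Figure D3:**
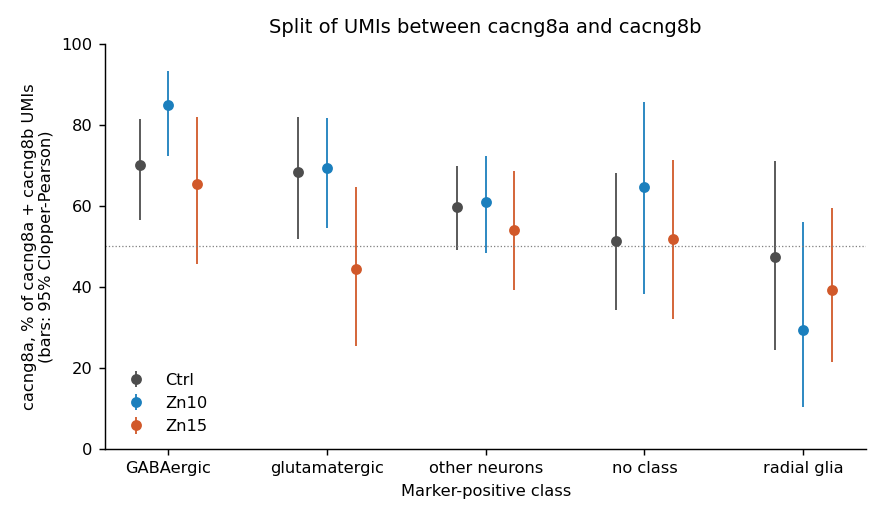
Share of cacng8a in the UMIs of cacng8a and cacng8b by class and library, in percent with Clopper-Pearson intervals. GABAergic neurons lay between 65.5% and 84.9% and radial glia between 29.4% and 47.4%.

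The gene cacng4a, which encodes a type I TARP known also from glial cells in rodents, was the only tested channel gene that was lower in neurons. It had 2, 3 and 1 UMIs in neurons of Ctrl, Zn10 and Zn15 and 7, 9 and 10 UMIs in glia, although neurons held more UMIs in all. Its log2 fold change was -2.88 ± 0.60 (edgeR, adjusted p = 1.45e-04), and DESeq2 also called it (adjusted p = 0.0106). Of its 43 UMIs, 19 fell in radial glia (31.2 CPM, 18.8 to 48.7), 4 in oligodendrocytes, 3 in OPCs, 6 in neurons with neither or both transmitter lists, none in glutamatergic or GABAergic neurons, and 10 in barcodes with no class. Without any 1 library it fell under the 30 UMIs needed for the test, and with a minimum of 10 UMIs, chosen after seeing the data, it remained called without each library in turn, with log2 fold changes between -3.01 and -2.58. With all classes fitted together, several of them at 0 UMIs of the gene, its log2 fold change was -2.71 and it was not called (edgeR, adjusted p = 1). The gene cacng5a, whose mouse counterpart is known from Bergmann glia, had 11 UMIs in radial glia (18.1 CPM, 9.01 to 32.3) and 14 in neurons (7.70 CPM, 4.21 to 12.9), too few for a test.

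**Figure D4:**
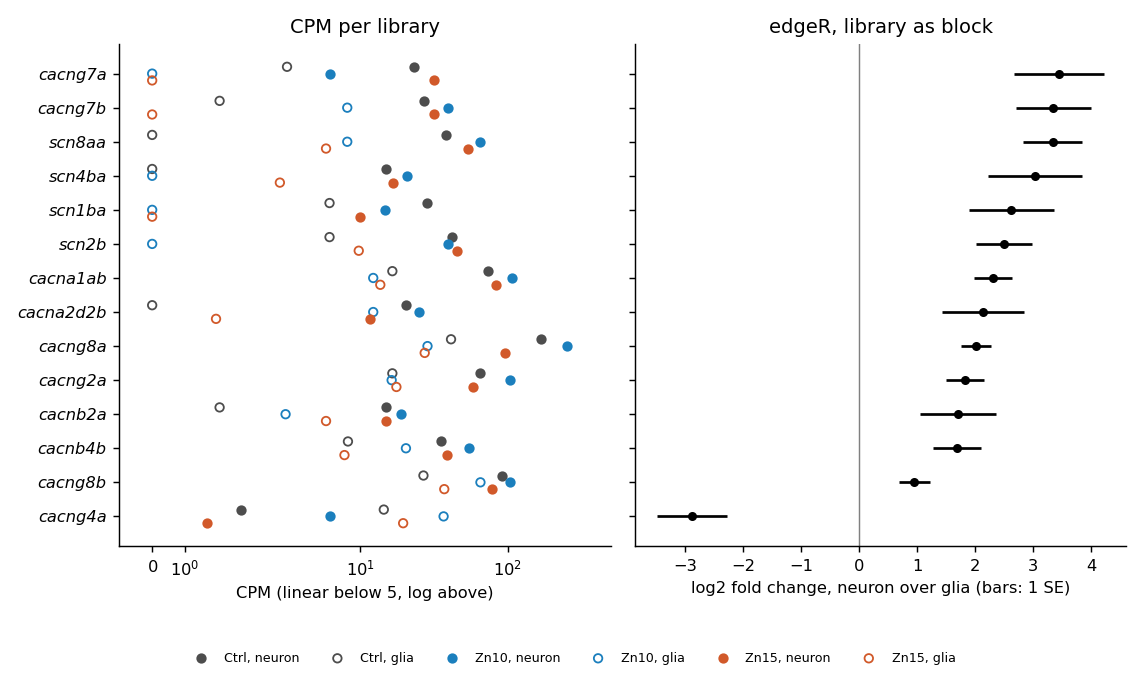
The 14 tested channel genes in neurons (filled) and glia (open). Left, CPM per library, on an axis that is linear near 0 and logarithmic above; right, log2 fold change of neurons over glia with 1 SE, where cacng4a at -2.88 is the only gene below 0.

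RNA of neurons was also seen in glia-positive barcodes. The general neuron marker list stood at 1315 CPM in radial glia, 2254 CPM in oligodendrocytes, 2230 CPM in OPCs and 184 CPM in microglia. In the neuron classes it stood at 14962 to 16355 CPM, a comparison that the class rule itself shapes. Among radial glia, the 983 barcodes with no UMI of the neuron lists carried the channel set at 184 CPM (143 to 233), and the other 508 at 459 CPM (377 to 553). The gene cacng4a had 6 UMIs in the first and 13 in the second, and cacng8b had 12 and 27. Both genes thus had more UMIs in the group with neuron RNA, although that group has fewer barcodes. Free RNA and doublets were not tested as sources of these UMIs. Against radial glia alone 7 of 13 tested channel genes were higher in neurons (background 16.7%) and none lower (background 17.1%), and the 6 not called were cacng8b, cacnb4b, cacnb2a, scn1ba, scn4ba and cacna2d2b. Against oligodendrocytes alone it was 12 of 12 (background 26.3%) and none lower (background 19.7%), both in comparisons added after seeing the data. In both comparisons a gene reached the minimum more easily through the larger neuron sums. The tested genes were therefore mostly genes with many neuron UMIs, and these counts do not stand for the whole set. The gene cacng4a had too few UMIs for either comparison, so the absence of lower genes does not cover it.

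Between glutamatergic and GABAergic neurons, 7 channel genes could be tested and none was called by edgeR, with a background of 2.39% higher and 2.02% lower of 3015 genes. At an unadjusted p under 0.05, 2 genes were lower in glutamatergic neurons, cacng8a with a log2 fold change of -0.72 ± 0.25 (adjusted p = 0.0856) and cacng2a with -0.91 ± 0.43 (adjusted p = 0.293). The gene cacng8a had 28, 34 and 12 UMIs in glutamatergic barcodes of Ctrl, Zn10 and Zn15 and 40, 45 and 19 in GABAergic barcodes. DESeq2 called none either. No channel gene had enough UMIs to be tested between OPCs and oligodendrocytes, where the background was 4.56% higher and 9.93% lower. The set as a whole was 3.41-fold (1.96 to 5.74) higher in OPCs than in oligodendrocytes from 21 and 54 UMIs, and in Ctrl and Zn15 taken alone the interval of this ratio included 1. Only the minimum of 2 marker UMIs was held by 16 of 24, 22 of 50 and 14 of 46 OPC barcodes in Ctrl, Zn10 and Zn15. For oligodendrocytes it was 12 of 683, 2 of 246 and 5 of 475.

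Genes whose products bind or position these channels were described beside them from lists of 5 kinds that held a tested gene: fibroblast growth factor homologous factors, initial segment scaffolds, active zone proteins, RGK and STAC proteins, and calmodulin with its kinases. Of 24 such genes tested between neurons and glia, 21 were higher and 1 was lower in neurons by edgeR, beside 22.9% and 23.5% of all genes tested. The 4 active zone genes and the 10 calmodulin and kinase genes were all higher, as were the sodium channel-binding fgf13a and fgf13b and the ankyrin genes ank2a, ank2b and ank3a. Not called were the homologous factor gene fgf12a (0.34 ± 0.40; edgeR, adjusted p = 0.520) and the RGK gene rrad (0.74 ± 0.38; edgeR, adjusted p = 0.115). The ankyrin ank3a, whose mammalian counterpart anchors sodium channels at the initial segment, had a log2 fold change of 2.88 ± 0.35 (edgeR, adjusted p = 1.86e-08). The gene nfasca, for neurofascin, a cell adhesion protein that mammalian neurons and myelinating glia both make, was lower in neurons (-2.05 ± 0.14; edgeR, adjusted p = 6.88e-14).

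For zinc, each treatment had 1 library, so no test across samples was possible and no p-value is given. A gene was counted as past the fold when it differed at least 1.5-fold in CPM and had at least 20 UMIs over the 2 libraries compared. Both zinc libraries were set against the same Ctrl library, so the comparisons are not independent. In Zn10 over Ctrl 17 channel genes had enough UMIs, of which 7 were past the fold upward, beside 16.4% of all 8067 genes, and 3 downward, beside 10.7%. The counting intervals of cacng4a, cacng5a, cacna2d2b and cacng3b, among those upward, and of scn1ba, among those downward, included 1. The median log2 ratio was 0.58 for the 17 channel genes and 0.09 for all genes with enough UMIs. Median-of-ratios size factors would lower all Zn10 log2 ratios by 0.12, which left 6 channel genes past the fold upward. In Zn15 over Ctrl 16 genes had enough UMIs, none was past the fold upward, beside 11.4% of 8697 genes, and 4 were downward, beside 14.2%. The counting intervals of cacna2d2b and scn1lab, among those downward, included 1. The median was -0.10 for the 16 channel genes and -0.06 for all, and within neuron-positive barcodes the channel genes had a median of 0.054. With a minimum of 50 UMIs 2 of 7 genes were past the fold upward and 0 downward in Zn10, and 0 and 1 of 8 in Zn15. The background at that minimum is not given here.

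Summed over the set, Ctrl stood at 473 CPM (441 to 507), Zn10 at 643 CPM (594 to 696) and Zn15 at 401 CPM (371 to 433). Zn10 was highest and Zn15 lowest, with a ratio to Ctrl of 1.36 (1.22 to 1.51) for Zn10 and 0.848 (0.763 to 0.941) for Zn15. Neuron-positive barcodes took 43.4%, 49.3% and 36.7% of all UMIs in the same libraries, in the same order as the levels. A part of this share in the levels was not tested. Within neuron-positive barcodes the ratio was 1.29 (1.14 to 1.46) for Zn10 and 0.916 (0.807 to 1.04) for Zn15. Within glia-positive barcodes it was 1.46 (1.05 to 2.02) for Zn10 and 0.988 (0.735 to 1.33) for Zn15. Without cacng8a the Zn15 ratio over all barcodes was 0.924 (0.824 to 1.04). A photoreceptor marker list also differed between the libraries, with 14, 274 and 54 UMIs in Ctrl, Zn10 and Zn15, and 11 barcodes in all were photoreceptor-positive, with no channel UMI among them. Photoreceptor RNA elsewhere in the libraries was not tested for a part in these ratios.

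The largest contribution came from the TARP genes. Together they stood at 243, 351 and 189 CPM for Ctrl, Zn10 and Zn15. Their ratio to Ctrl was 1.44 (1.25 to 1.67) for Zn10 and 0.777 (0.669 to 0.903) for Zn15. The other 55 genes together had ratios of 1.27 (1.09 to 1.49) for Zn10 and 0.922 (0.795 to 1.07) for Zn15. Within neurons the ratios of these 55 genes were 1.22 (1.02 to 1.46) and 1.05 (0.881 to 1.25). The gene cacng8a had 162, 139 and 85 UMIs, so that after scaling Zn10 was highest and Zn15 lowest. Its Zn10 log2 ratio of 0.58 (ratio interval 1.18 to 1.89) lay just under the fold, and its Zn15 ratio was 0.545 (0.414 to 0.713). Within neurons the ratios were 1.51 (1.16 to 1.96) and 0.570 (0.409 to 0.786). In Zn15 the ratio was 0.882 (0.483 to 1.56) in GABAergic neurons, 0.560 (0.259 to 1.14) in glutamatergic neurons and 0.511 (0.308 to 0.829) in the remaining neurons, with intervals that overlap. The copy cacng8b had 98, 72 and 79 UMIs, and the intervals of both its ratios included 1.

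Among the other TARP genes, cacng2a had 69, 60 and 64 UMIs in Ctrl, Zn10 and Zn15, with a Zn10 ratio of 1.52 (1.05 to 2.17) and a Zn15 ratio of 0.964 (0.675 to 1.37). The pair cacng7a and cacng7b stood in opposite directions in Zn10 over all barcodes. The gene cacng7a had 23, 3 and 19 UMIs and a Zn10 ratio of 0.227 (0.0437 to 0.752), while cacng7b had 21, 25 and 29 UMIs and a Zn10 ratio of 2.07 (1.11 to 3.90). In barcodes with at least 200 genes the Zn10 log2 ratio of cacng7b went from 1.05 to 0.015, no longer past the fold. Within neurons cacng7a had 17 UMIs in Ctrl and 3 in Zn10, a ratio of 0.271 (0.0508 to 0.936), and the ratio of cacng7b was 1.46 (0.736 to 2.88). The share of cacng7a in the pair was 52.3%, 10.7% and 39.6% in the 3 libraries.

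Of the sodium channel genes, scn8aa had 35, 35 and 42 UMIs, and its Zn10 ratio was 1.74 (1.06 to 2.87). Within neurons that ratio was 1.70, with an interval of 0.986 to 2.94. The gene scn1lab, a Nav1.1-like alpha subunit whose loss gives seizures in zebrafish larvae, had 19, 1 and 10 UMIs. Its Zn10 ratio rested on that single UMI and was 0.0917 (0.00221 to 0.577), and in neurons it was 0.0959 (0.00229 to 0.617) from 1 and 16 UMIs. The beta 1 gene scn1ba had 28, 7 and 7 UMIs, was past the fold downward in both zinc libraries, with a Zn10 ratio of 0.436 (0.161 to 1.02) and a Zn15 ratio of 0.260 (0.0958 to 0.609). In neurons its Zn15 ratio was 0.351 (0.116 to 0.900).

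**Figure D5:**
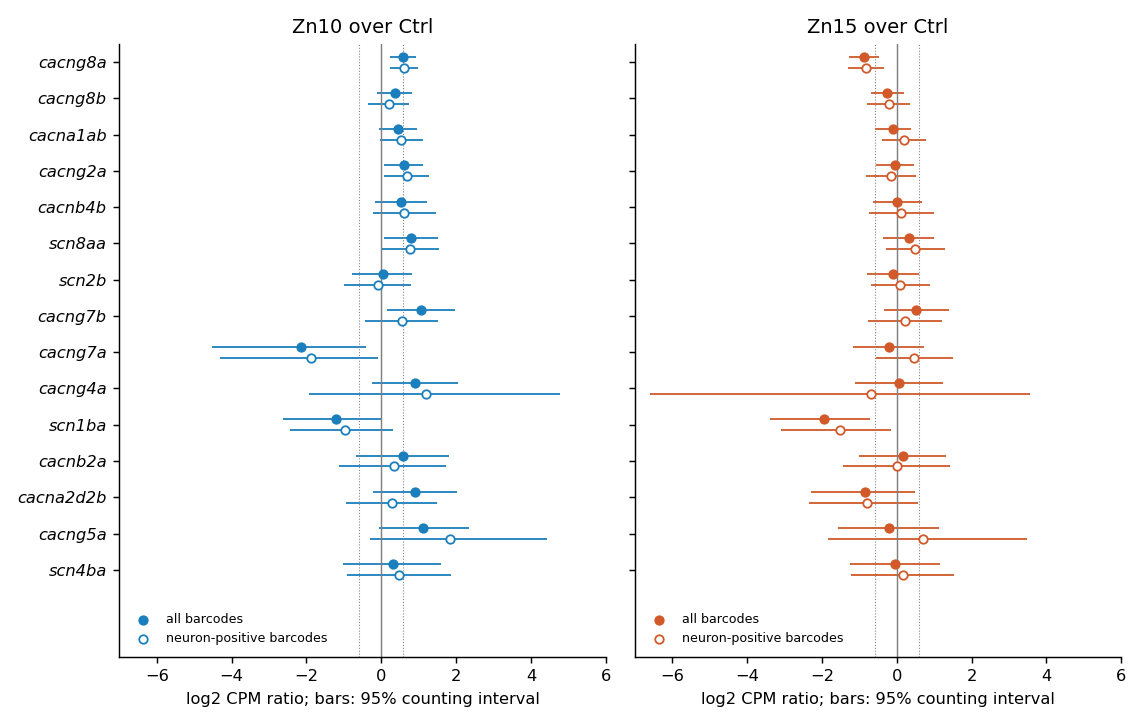
Log2 CPM ratio of each zinc library over Ctrl for the channel genes with at least 35 UMIs, over all barcodes (filled) and neuron-positive barcodes (open), with 95% counting intervals; dotted lines mark 1.5-fold. The Zn15 ratio of cacng8a lay below 1.5-fold downward in both, and cacng7a stood apart downward in Zn10.

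The T-type subunit Cav3.2, encoded by cacna1ha and cacna1hb, is known from mammals as a channel that low zinc inhibits. The gene cacna1ha had 8, 9 and 9 UMIs, of which 23 were in neurons, and its ratios were 1.96 (0.671 to 5.84) and 1.17 (0.400 to 3.48). With 2, 0 and 1 UMIs, cacna1hb allowed no ratio. A difference in these genes was not detectable at this depth.

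Genes known from skeletal muscle or photoreceptors had at most 18 UMIs each. No UMI was found for cacna1sa, cacna1sb, cacna1fa, cacng1b or scn4aa, and cacng1a had 3. The photoreceptor channel gene cacna1fb had 8, 5 and 5 UMIs, of which 10 were in neurons and 6 in oligodendrocytes. The muscle sodium channel gene scn4ab had 5, 2 and 5 UMIs, with 6 in neurons and 4 in glia. For both genes these are counts and not levels, since neurons held more UMIs in all than glia or oligodendrocytes.

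Among the partner genes, here with a list for the sodium leak channel NALCN that gave 1 gene with enough UMIs in Zn10, 4 of 27 were past the fold upward in Zn10, beside 16.4% of all genes, and 4 downward, beside 10.7%. In Zn15 2 of 29 were upward, beside 11.4%, and 6 downward, beside 14.2%. These shares lay near the background, and the genes below are given as values only. The RGK gene rem2, whose product inhibits calcium channels in mammals, had 28, 6 and 9 UMIs, with ratios of 0.373 (0.126 to 0.919) and 0.334 (0.139 to 0.728). Another RGK gene, gem, had 37, 23 and 12 UMIs and a Zn15 ratio of 0.337 (0.160 to 0.661). The third RGK gene with enough UMIs, rrad, had 38, 38 and 47 UMIs and a Zn10 ratio of 1.74 (1.08 to 2.81). The sodium channel-binding gene fgf13b had 44, 46 and 40 UMIs and a Zn10 ratio of 1.82 (1.18 to 2.82).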

How the data were processed

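The submitters deposited 1 filtered matrix of UMI counts per library, made with Cell Ranger 4.0.0 per the file headers. Besides it, fastp and Seurat appear in the submitters' processing notes, with the build GRCz11. The counts were used as deposited, with no further filter on barcodes. From the deposited counts, CPM was computed per library or class, with exact Poisson and Clopper-Pearson intervals and exact conditional binomial intervals for ratios. Class differences were fitted with edgeR 4.0.16 (TMM, library as block, Benjamini-Hochberg over all genes tested), with DESeq2 1.42.0 as an alternative. The 104 marker genes were left out of these fits. Each library gave both classes of a comparison, so the residual spread is between 3 libraries of different treatment. The fits left 2 residual degrees of freedom per gene, and edgeR shares the estimate of this spread across genes. A p-value therefore rests largely on that shared estimate and only in part on a gene's own spread between libraries. The class test was tested on simulated data. Named genes were those with at least 100 UMIs, those past 1.5-fold with an interval that left out 1, those called between classes, the Cav3.2 genes, and the muscle and photoreceptor genes. Other genes were named after their values were seen, as were the paralog pairs. Members and lists were chosen with earlier results of these data known.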

Additional observations from a re-analysis of the deposited data

How the results depend on the processing

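No paired analysis of zinc was possible because each zinc group has 1 library and the labels carry no replicate numbers. The class tests did pair the classes within each library. Without the library as a replicate block the test of neurons against glia gave the same 13 genes higher and 1 lower. In Zn10 over Ctrl the count upward went from 7 to 2 (of 7 genes tested) with at least 50 UMIs and to 2 (of 17) with a fold of 2. It was 4 (of 11) in barcodes with at least 200 genes and 4 (of 13) in neuron-positive barcodes. The count downward went from 3 to 0 and 1 with at least 50 UMIs and at least 200 genes. In Zn15 over Ctrl the count downward went from 4 to 1 (of 8 genes tested) with at least 50 UMIs and to 1 (of 16) with a fold of 2. With at least 10 UMIs it was 7 (of 27), and 3 genes stood upward in place of 0. The shares of all genes past the fold under these settings are not given here, so these counts have no background. The Zn15 median of -0.10 was -0.36 with at least 200 genes and 0.054 in neuron-positive barcodes, and the summed log2 ratio of -0.24 was -0.63 with at least 200 genes. Between neurons and glia the 13 genes higher were 7 with DESeq2, 8 with edgeR's own expression filter (of 8 tested), 7 against radial glia alone, and 7 to 10 without 1 library, the 7 without Ctrl, where 8 were tested. The background under that filter and without 1 library is not given here. The 1 gene lower, cacng4a, became 0 with all classes fitted together, at a log2 fold change of -2.71. It had too few UMIs for a test under that filter, against radial glia or oligodendrocytes alone, and without each library, which gives 0 there too. Fewer genes were tested under stricter minimums, and the cause of the changes in these counts was not tested. Of 312 single-gene values under alternatives, 19 lost the call and 291 kept the call or, for zinc ratios, moved within the counting error. A called gene that was not tested under a setting is not among the 312. The zinc ratios among them cover only the channel genes with the most UMIs. The downward ratios of cacng7a and scn1lab in Zn10, and of scn1ba in both zinc libraries, were not followed under these settings. The 312 values therefore do not speak for them. The 2 that moved further were cacng7b in Zn10 (0.015) and cacna1ab in Zn15 (-1.07), both with at least 200 genes. In 12 cases, all of them zinc ratios whose interval included 1, the sign changed. With 1 library per treatment, zinc and library cannot be told apart.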

Other observations

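Subsets of neuron-positive barcodes set by regional markers carried the channel genes with overlapping intervals: 741 CPM (628 to 868) in the cerebellar granule list, 838 CPM (723 to 966) in the midbrain list, 676 CPM (473 to 936, 36 UMIs) in the habenula list, and 489 CPM (133 to 1251) in the pallium list from 4 UMIs. By library the habenula subset stood at 315, 994 and 597 CPM in Ctrl, Zn10 and Zn15, with 24 of its 36 UMIs from Zn10, and the granule subset at 858, 758 and 646 CPM. The sodium channel beta gene scn4bb had 5, 10 and 2 UMIs in Ctrl, Zn10 and Zn15, and 9 of the 17 lay in barcodes with no class, 6 in glia and 2 in neurons. One barcode in Zn10 held 8 channel UMIs, against at most 5 in Ctrl and 4 in Zn15.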
